A study of Mus musculus with 15 samples.

Results

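Expression of 8 genes of myoblast fusion and membrane repair was followed in C2C12 myotubes given Jakyak-gamcho-tang (JGT), a lyophilised decoction of Paeoniae radix (peony) and Glycyrrhizae radix et rhizoma (licorice). The 8 genes were chosen by symbol: Tmem8c (myomaker, listed as Mymk in GENCODE), Cdh15 (M-cadherin), Cdh2 (N-cadherin), Ncam1, Cav3 (caveolin 3), Dysf (dysferlin), Myof (myoferlin) and Ehd1. They are 8 of the 42807 gene symbols in the count table, and all 8 were among the 14461 genes with enough counts to be tested. In GENCODE M21 (GRCm38) the genes lie at chr2:27061636-27072179 (− strand, Tmem8c), chr8:122847966-122867397 (+, Cdh15), chr9:49502136-49798925 (−, Ncam1), chr6:112459505-112472872 (+, Cav3), chr6:84008590-84211060 (+, Dysf), chr19:37899036-38043577 (−, Myof) and chr19:6276725-6300096 (+, Ehd1), and Cdh2 lies on chromosome 18.

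C2C12 is an established mouse line of muscle-derived myoblasts that fuse into multinucleated myotubes when serum is lowered. The study grew the line in a medium with horse serum for 6 days and then exposed the myotubes for 24 h. There were 5 groups of 3 RNA sequencing libraries: non-treated cells, vehicle cells given 0.1% DMSO, and cells given JGT at 20, 100 or 500 µg/mL. The JGT stock held 10 mg/mL in phosphate-buffered saline with 2% DMSO, so that the 20, 100 and 500 µg/mL doses carried 0.004%, 0.02% and 0.1% DMSO if diluted from it directly; the vehicle is thus matched in DMSO to the highest dose alone. The labels describe 500 µg/mL as the maximum tolerable dose, at which viability was 80%. All groups come from 1 cell line, and no label says that replicates are independent cultures, so p-values measure the spread between libraries, which may be technical. Control libraries and JGT libraries carry different series of sample codes, though all titles carry the same batch label. In comparisons with a control, a difference in handling between the series could not be told apart from JGT.

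Skeletal muscle fibres form when myoblasts recognise and adhere to each other, rearrange cortical actin and merge their membranes. Cadherins and NCAM hold the cells together, and myomaker, a muscle-specific membrane protein, is required for the merging step, which myomixer completes. Ferlins are calcium-binding membrane proteins: myoferlin acts in the fusion of myoblasts with myotubes, and dysferlin brings vesicles to torn sarcolemma. Caveolin 3 builds the caveolae of muscle membrane, and EHD1 is an endocytic recycling protein that binds ferlins. Loss of dysferlin or caveolin 3 function causes muscular dystrophies in people.

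The region before the transcription start was read for the members with a window in the RefSeq promoter table (build GRCm38.p6), which covered 4 of the 8 genes, Cdh15, Cav3, Dysf with 2 starts, and Myof. The 250 bases upstream of Cav3, on chr6:112459255-112459504 (+ strand), and of Myof, on chr19:38043578-38043827 (− strand), are shown because Cav3 had the largest increase with JGT among the members and holds the letters bound by myogenic factors, whereas Myof holds none. Capitals mark E-boxes, CANNTG on either strand, the letters that basic helix-loop-helix factors such as MyoD and myogenin bind.
Cav3: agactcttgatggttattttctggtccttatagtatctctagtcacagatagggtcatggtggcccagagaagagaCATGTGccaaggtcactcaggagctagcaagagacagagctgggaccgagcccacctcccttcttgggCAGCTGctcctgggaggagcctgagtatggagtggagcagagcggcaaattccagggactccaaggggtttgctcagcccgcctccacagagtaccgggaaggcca
Myof: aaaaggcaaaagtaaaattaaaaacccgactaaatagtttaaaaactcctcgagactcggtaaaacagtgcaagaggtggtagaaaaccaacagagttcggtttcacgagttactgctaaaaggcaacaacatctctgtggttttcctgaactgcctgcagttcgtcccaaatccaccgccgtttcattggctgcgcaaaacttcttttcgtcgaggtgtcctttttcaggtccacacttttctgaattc
The Cav3 window held 2 E-boxes, the first with its first base at −174 and the second, of the CAGCTG form, at −106, counting from −1 next to the start. The Cdh15 window held 3, at −236, −135 and −32, and the windows of Dysf and Myof held none. At 500 µg/mL against vehicle, Cav3, Dysf and Myof were called higher (adjusted p below 0.05) and Cdh15 was not called. A link between E-boxes and these changes was not tested. Of all 32851 windows of this length, 66.2% held an E-box, and 13% held the form at −106 of Cav3. The Cav3 and Myof windows lie outside the GENCODE gene, while all 250 bases of the Cdh15 window lie in annotated Cdh15 exons. Other motifs were searched on both strands: TGACNNNGC, a core of the antioxidant response element, occurred in the Cdh15 window at −103 and in 10.2% of all windows, and GCGTG, a core of the xenobiotic response element, occurred in the Dysf windows (2 times at the first start, 1 time at the second) and in 28.2% of all windows. The AP-1 site TGANTCA occurred in none of the 5 member windows and in 6.75% of all windows. The TEAD site GGAATG was likewise in none, against 12.6% of all windows, and the E-box form CAGGTG in none, against 17.2%. A match is a description of letters, and no match in a window says nothing about a factor.

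Levels are given in CPM, counts scaled to a common library size after TMM, a method that corrects library totals for composition. Library totals ran from 26012844 to 36854199 counts. Averaged over the 15 libraries, Tmem8c was the most abundant member at 871.2 CPM, above 99.2% of the tested genes, and Cav3 the least abundant at 103.3 CPM. Between genes a level needs the transcript length: per kilobase of the longest principal transcript Tmem8c had 630.4 CPM, Cdh15 148.0, Ncam1 111.7, Cav3 89.3, Myof 75.9, Cdh2 59.9, Ehd1 54.6 and Dysf 22.2. With the union of all exons as the length, the values were 576.6 for Tmem8c and 17.7 for Dysf. Ncam1 overlaps the antisense gene Gm11149 (417 exon bases shared) and Dysf overlaps the antisense genes Gm33024 (105 bases) and Gm15475 (352 bases). No source used here gives the strand option of the counting, so the reads of these pairs cannot be told apart, and the Ncam1 and Dysf values below carry that uncertainty.

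The 12 myotube marker genes were abundant in all groups, with summed levels of 22810.3 to 24577.9 CPM at 500 µg/mL and 22904.6 to 24350.2 CPM in vehicle. Of the 12, 5 were called higher at 500 µg/mL (Myog, Mylpf, Tnnt3, Tnni2 and Des) and 3 lower (Ckm at −0.48, Myh8 at −0.38 and Myh3 at −0.18 on the log2 scale). Beside these and the marker counts below, 33.3% of all tested genes were called at 500 µg/mL against vehicle, 16.5% higher and 16.8% lower. The defining markers of other lineages were at or near 0: over the 15 libraries Cidec had 0 counts, Sox10 1, Rbfox3 3, Ptprc 6 and Pecam1 23. The 9 genes of proliferating cells summed to 144.2 to 144.9 CPM at 500 µg/mL, against 349.3 to 360.1 CPM in vehicle, and all 9 were called lower. Of the 8 tested genes of myoblasts and reserve cells 1 was higher and 5 were lower, with sums of 265.7 to 292.0 CPM at 500 µg/mL and 275.0 to 279.9 CPM in vehicle. The higher gene was Gas1 (log2 fold change 0.76), the most abundant of the list at 96.5 CPM over the 15 libraries. The median log2 fold change of the 8 was −0.52. Of the 6 tested genes of fibroblasts and matrix-producing cells 1 was higher and 2 were lower, with sums of 2244.3 to 2709.2 CPM at 500 µg/mL and 3135.3 to 3212.8 CPM in vehicle. In bulk samples fewer cells of a type and less RNA per cell cannot be told apart, and the part of such a change in the results for the members was not tested. The JGT 500 libraries also stood apart on the first principal component of all tested genes, at 41.4, 16.3 and 44.6, where no other library was above −1. Replicate 2, the lowest of the 3, also stood apart on the second component at −29.1. Without it the same count of members, 4 higher and 1 lower, was called against vehicle, where 6323 of all genes were called in place of 4815.

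**Figure D1:**
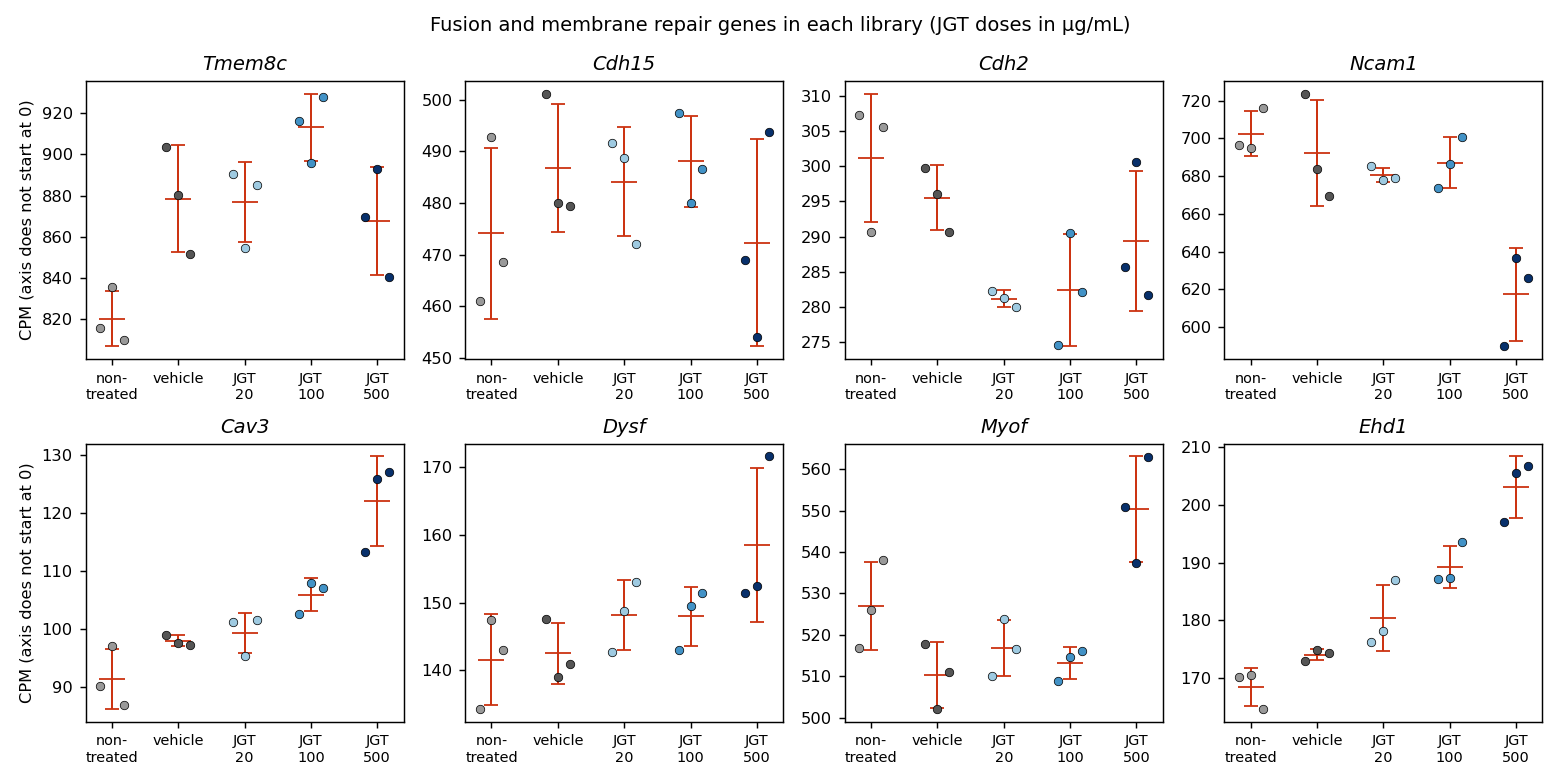
Each panel plots 1 of the 8 genes: points are libraries, the horizontal bar is the group mean and the vertical bar ± 1 SD (n = 3), in CPM on axes that do not start at 0, for non-treated, vehicle and JGT at 20, 100 and 500 µg/mL. Cav3 and Ehd1 are highest in the 3 libraries at 500 µg/mL and Ncam1 is lowest in them, while the groups of Cdh15 overlap throughout.

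At 500 µg/mL, 5 of the 8 genes differed from vehicle: Cav3, Ehd1, Dysf and Myof rose and Ncam1 fell. Calls rest on an edgeR quasi-likelihood fit of all 15 libraries, at a Benjamini-Hochberg adjusted p over all tested genes below 0.05, and 33.3% of all tested genes were called in this comparison (16.5% higher, 16.8% lower). Among the members 4 were higher and 1 was lower; with 8 genes chosen while results were known, this is a count beside that share and not a test. The libraries of the 2 groups did not overlap for 5 of the 8 members, the same 5 that were called, against 40.1% of all tested genes. The largest change of a member was a fold of 1.25.

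Tmem8c, the muscle fusion protein, was not called against vehicle at any dose. It had 869.4, 892.7 and 840.7 CPM at 500 µg/mL, against 903.5, 880.1 and 851.6 CPM in vehicle. The groups overlapped, and the log2 fold change was −0.02 with a 95% interval of −0.09 to 0.06 (adjusted p = 0.737). Its means were 820.3 ± 13.5 CPM in non-treated cells, 878.4 ± 26 in vehicle, 876.7 ± 19.5 at 20, 913.2 ± 16.3 at 100 and 867.6 ± 26 at 500 µg/mL (SD, n = 3). The 3 vehicle libraries all lay above the 3 non-treated libraries, but the difference was not called (log2 fold change 0.10, adjusted p = 0.174), and between the 2 controls 1.31% of genes were called and 26.8% did not overlap. Myomixer, which acts with myomaker and is listed as Gm7325, had 72 ± 5.68 CPM at 500 µg/mL and 65.4 ± 1.74 CPM in vehicle, and was not called (log2 fold change 0.14, adjusted p = 0.0761), though it was called without JGT 500 replicate 1 (0.20, adjusted p = 0.0145) and with non-treated cells as the control (0.22, adjusted p = 0.00873).

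The cadherins showed no called difference in any comparison with vehicle. M-cadherin, Cdh15, a muscle cadherin of myoblast contact, had 469.0, 454.1 and 493.8 CPM at 500 µg/mL, against 501.2, 480.0 and 479.4 CPM in vehicle, and the groups overlapped. Its log2 fold change was −0.04 with an interval of −0.12 to 0.04 (adjusted p = 0.401). N-cadherin, Cdh2, had 285.7, 300.6 and 281.7 CPM at 500 µg/mL, against 299.8, 296.1 and 290.7 CPM in vehicle (log2 fold change −0.03, interval −0.10 to 0.04, adjusted p = 0.54). At 20 µg/mL its 3 libraries, between 279.9 and 282.3 CPM, lay below the 3 vehicle libraries, but the difference was not called (adjusted p = 0.48). Between these 2 groups 20.9% of all genes did not overlap. The Cdh2 libraries at 100 µg/mL, between 274.5 and 290.5 CPM, also lay below those of vehicle without a call (log2 fold change −0.07, adjusted p = 0.388). In that comparison 26.3% of all genes did not overlap.

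N-cadherin relative to M-cadherin, counted within each library so that scaling cancels, averaged 0.607 ± 0.00939 in vehicle, 0.581 ± 0.0104 at 20, 0.579 ± 0.0268 at 100 and 0.614 ± 0.0459 at 500 µg/mL (SD, n = 3). Exact two-sided permutation tests of the log2 ratio against vehicle gave p = 0.1 at 20, 0.2 at 100 and 0.8 at 500 µg/mL, with 0.1 the smallest p that 3 against 3 libraries allow. Benjamini-Hochberg adjustment over the 6 ratio comparisons gave 0.4, 0.4 and 0.8. The spread at 500 µg/mL was wide: its libraries had 0.609, 0.662 and 0.57, where the vehicle libraries had 0.598, 0.617 and 0.606.

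Ncam1, an adhesion molecule of the immunoglobulin family found on myotubes and uninnervated fibres, was the one member that fell. It had 589.7, 636.7 and 625.8 CPM at 500 µg/mL, against 723.7, 684.0 and 669.3 CPM in vehicle. All 3 libraries at 500 µg/mL lay below every library of the other groups. The log2 fold change was −0.17 ± 0.0375 (SE), a fold of 0.892, with adjusted p = 0.00194. Its levels at 20 and 100 µg/mL, 680.7 ± 3.89 and 687.0 ± 13.5 CPM, overlapped those of vehicle, and the slope over the 3 doses was not called (adjusted p = 0.0693).

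**Figure D2:**
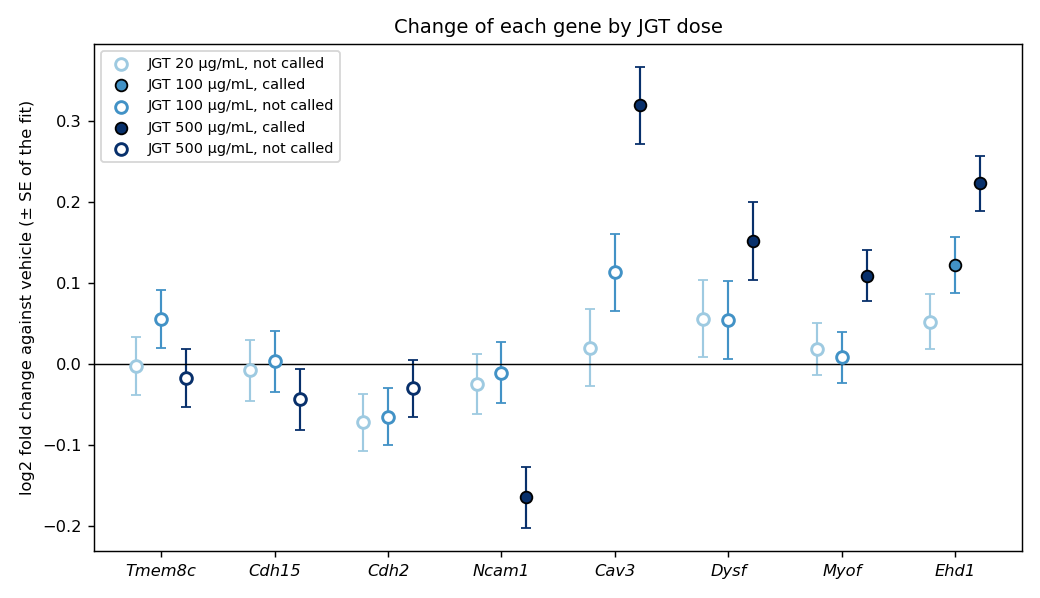
Log2 fold changes against vehicle of the 8 genes at 20, 100 and 500 µg/mL, with bars of ± 1 SE of the edgeR fit; filled points were called and open points were not. Cav3 has the largest rise at 500 µg/mL, 0.32, and Ncam1 the only called fall, −0.17; the 3 doses share the vehicle libraries.

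Cav3 had the largest change. It had 113.2, 125.9 and 127.2 CPM at 500 µg/mL, against 99.0, 97.6 and 97.2 CPM in vehicle, and no library of 500 µg/mL was below any vehicle library. The log2 fold change was 0.32 ± 0.0475 (adjusted p = 2.9e-05). At 100 µg/mL it had 102.6, 108.0 and 107.1 CPM, all above the vehicle libraries, but the difference was not called (log2 fold change 0.11, adjusted p = 0.234), and 26.3% of all genes did not overlap in that comparison.

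Ehd1, the endocytic recycling protein, had 197.0, 205.5 and 206.8 CPM at 500 µg/mL, against 173.0, 174.8 and 174.4 CPM in vehicle (log2 fold change 0.22 ± 0.0342, fold 1.17, adjusted p = 3.88e-05). Its means were 168.4 ± 3.29 CPM in non-treated cells and 174.0 ± 0.938 in vehicle, both without JGT. With JGT they were 180.5 ± 5.74 at 20, 189.3 ± 3.64 at 100 and 203.1 ± 5.3 at 500 µg/mL. No neighbouring groups overlapped. Taken step by step, 26.8% of all genes did not overlap between the controls, 20.9% between 20 µg/mL and vehicle and 29.5% between 500 and 100 µg/mL. The share between 100 and 20 µg/mL, and that of genes apart at every step, are not given here. The lower steps were not called by edgeR: vehicle against non-treated cells (adjusted p = 0.516), 20 µg/mL against vehicle (0.625) and 100 against 20 µg/mL (0.692). Ehd1 was the one member called at 100 µg/mL against vehicle, where 4.31% of genes were called (log2 fold change 0.12 ± 0.0341, adjusted p = 0.047). That call was lost when any 1 of the 6 libraries of the comparison was left out (adjusted p from 0.0997 to 0.2).

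Dysf had 151.5, 152.4 and 171.6 CPM at 500 µg/mL, against 147.6, 139.1 and 140.9 CPM in vehicle. Replicate 3 at 500 µg/mL was the highest of all 15 libraries, and the other two were above every vehicle library by a small margin. The log2 fold change was 0.15 ± 0.0481 (fold 1.11, adjusted p = 0.019). Without replicate 3 at 500 µg/mL it was 0.09 (adjusted p = 0.152), without vehicle replicate 2 it was 0.14 (adjusted p = 0.0829), and without vehicle replicate 3 it was 0.14 (adjusted p = 0.0786).

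Myof, abundant in myoblasts, had 550.8, 537.3 and 562.8 CPM at 500 µg/mL, against 517.8, 502.1 and 511.0 CPM in vehicle (log2 fold change 0.11 ± 0.0319, fold 1.08, adjusted p = 0.0124). The groups did not overlap, but the non-treated libraries, at 516.9, 526.1 and 538.0 CPM, reached into the range at 500 µg/mL, and against non-treated cells the log2 fold change was 0.06 (adjusted p = 0.149). The call against vehicle was also lost without replicate 3 at 500 µg/mL (log2 fold change 0.09, adjusted p = 0.0571) and without vehicle replicate 2 (0.10, adjusted p = 0.0595).

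Myoferlin relative to dysferlin averaged 3.58 ± 0.0637 in vehicle, 3.49 ± 0.104 at 20, 3.47 ± 0.0778 at 100 and 3.48 ± 0.182 at 500 µg/mL (SD, n = 3). The exact permutation tests against vehicle gave p = 0.3 at 20, 0.2 at 100 and 0.7 at 500 µg/mL (adjusted 0.45, 0.4 and 0.8); with 3 libraries a group the smallest p such a test can give is 0.1, so none could pass 0.05.

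**Figure D3:**
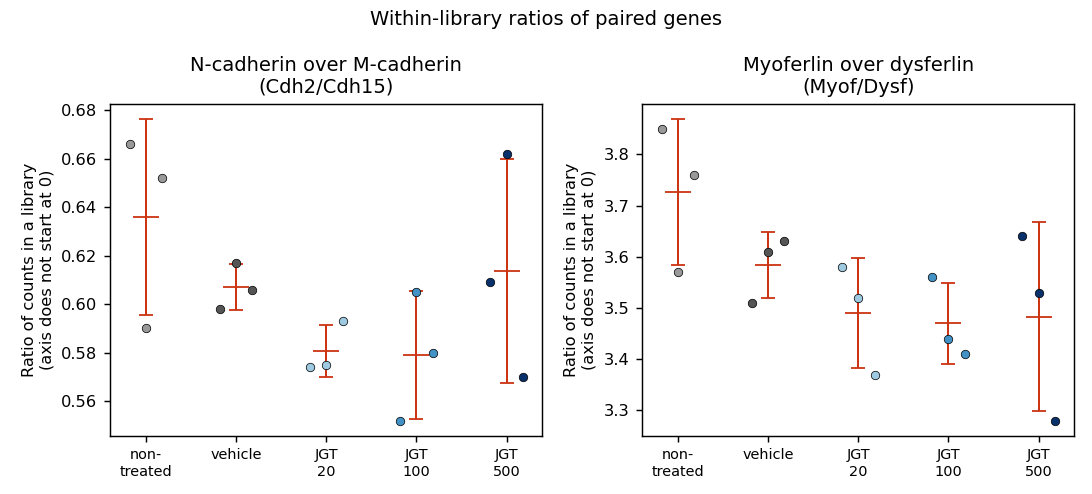
Ratio of counts within each library for Cdh2 over Cdh15 (left) and Myof over Dysf (right) in the 5 groups, on axes that do not start at 0: points are libraries and bars are the mean ± 1 SD (n = 3). The 500 µg/mL libraries spread from 0.57 to 0.662 for the cadherins and from 3.28 to 3.64 for the ferlins, around the vehicle means of 0.607 and 3.58.

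Between doses, 4 members differed at 500 against 100 µg/mL, where 19.7% of genes were called and 29.5% did not overlap. Cav3 was 0.21 higher on the log2 scale (adjusted p = 0.00409) and Ncam1 0.15 lower (log2 fold change −0.15, adjusted p = 0.00623). Myof and Ehd1 were each 0.10 higher (adjusted p = 0.0318 and 0.0408). Both calls were lost when any JGT 100 library or JGT 500 replicate 3 was left out; that of Myof was also lost without JGT 500 replicate 1 and that of Ehd1 without JGT 500 replicate 2. Without JGT 500 replicate 2, 4989 genes were called in place of 2853, and Tmem8c was then called lower (−0.10, adjusted p = 0.0313), so that 2 members were higher and 2 lower. Without JGT 100 replicate 2, 1880 genes were called. Between 100 and 20 µg/mL no member was called by edgeR, none had an unadjusted p under 0.05, and 0.429% of genes were called. At 20 µg/mL against vehicle no member was called or had an unadjusted p under 0.05, and 0.325% of genes were called. Of the genes called at 500 against 100 µg/mL 45.9% were higher, and 58.5% when scaled by library totals only; at 100 against 20 µg/mL the shares were 69.4% and 55.9%. In a separate fit of the 9 JGT libraries, the slope per dose step was called for Cav3 (0.15 ± 0.0261, adjusted p = 0.00178) and Ehd1 (0.08 ± 0.0198, adjusted p = 0.0105), and for 15.9% of all genes.

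Against the non-treated cells, which received no DMSO, no member was called at 20 µg/mL (3.11% of genes called), 3 were called at 100 (9.13%) and 4 at 500 µg/mL (31.8%). At 500 µg/mL Cav3 was higher by 0.42 (adjusted p = 7.86e-07), Ehd1 by 0.27 (3.31e-06) and Dysf by 0.16 (0.0137), and Ncam1 was lower (log2 fold change −0.19, 0.00065). At 100 µg/mL Tmem8c was called higher (log2 fold change 0.15, adjusted p = 0.00771), as were Cav3 (0.21, 0.00594) and Ehd1 (0.17, 0.0026). All comparisons with a control share that control's libraries, so these are not separate evidence. Between vehicle and non-treated cells no member was called by edgeR, and 2 had an unadjusted p under 0.05.

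Across the 15 libraries, the genes most like Cav3 in log2 CPM were Tmem140 (r = 0.957), Slc35e4 (0.953) and Preb (0.946) among 9941 genes with a mean of at least 5 CPM, and among the members Ehd1 was closest (0.951). Ehd1 was most like Preb (0.963), Phospho1 (0.959) and Gpam (0.956). Ncam1 was most like Dnm3 (0.927), Itga5 (0.926) and Cep192 (0.916), and its closest member was Cdh2 (0.311). Dysf was most like Nfe2l1 (0.921), Cdc42bpb (0.921) and Kdm1a (0.916), with Cav3 the closest member (0.775), and Myof was most like Map4k4 (0.936), Sdf4 (0.933) and Gpn2 (0.931), with Dysf the closest member (0.709). For Tmem8c the nearest were Maml3 (0.900), Lynx1 (0.875) and Zmiz2 (0.861), for Cdh15 Unc45b (0.842), Ccdc134 (0.788) and Myo18b (0.786), and for Cdh2 Hoxa9 (0.905), Tec (0.871) and Frs2 (0.859). These are descriptions over libraries that share groups and processing.

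The other genes of the pathway were read from 7 lists, 133 distinct tested genes, of which 23 rose and 43 fell at 500 µg/mL, a called share of 49.6% against 33.3% of all genes. At 100 µg/mL 2 rose and 7 fell (6.77%, against 4.31% of all genes). At 20 µg/mL Cd44 alone fell (0.752%, against 0.325% of all genes), with a log2 fold change of −0.29 (adjusted p = 0.000598). The genes that rose at 100 µg/mL were Ehbp1 (0.22) and Il4ra (0.18), and those that fell were Cd44 (−0.36), Nfatc2 (−0.69), Fst (−0.32), Cav1 (−0.25), Itga4 (−0.23), Sh3pxd2b (−0.16) and Vcl (−0.14). Of these 9 calls, that of Itga4 was lost without any 1 of the 6 libraries (adjusted p from 0.0879 to 0.149). That of Ehbp1 was lost without vehicle replicate 1 or 3 or JGT 100 replicate 1 or 2 (0.0504 to 0.0852), and that of Nfatc2 without the same 4 libraries (0.0559 to 0.107). That of Vcl was lost without vehicle replicate 1 or 3 or JGT 100 replicate 1 or 3 (0.0517 to 0.0812), that of Il4ra without vehicle replicate 1 or JGT 100 replicate 1 or 3 (0.0528 to 0.0569), and that of Sh3pxd2b without vehicle replicate 2 or JGT 100 replicate 1 (0.0607 and 0.0609). With non-treated cells as the control, Nfatc2 (−0.26, adjusted p = 0.408), Ehbp1 (0.11, adjusted p = 0.203) and Sh3pxd2b (−0.04, adjusted p = 0.564) were not called at 100 µg/mL. Against vehicle, Itga4 was also not called at 100 µg/mL with no filter (adjusted p = 0.142) or by DESeq2 (adjusted p = 0.137). With non-treated cells as the control its call was kept. The median log2 fold change of the lists at 500 µg/mL lay between −0.09 and 0.26, against 0.01 for all genes.

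**Figure D4:**
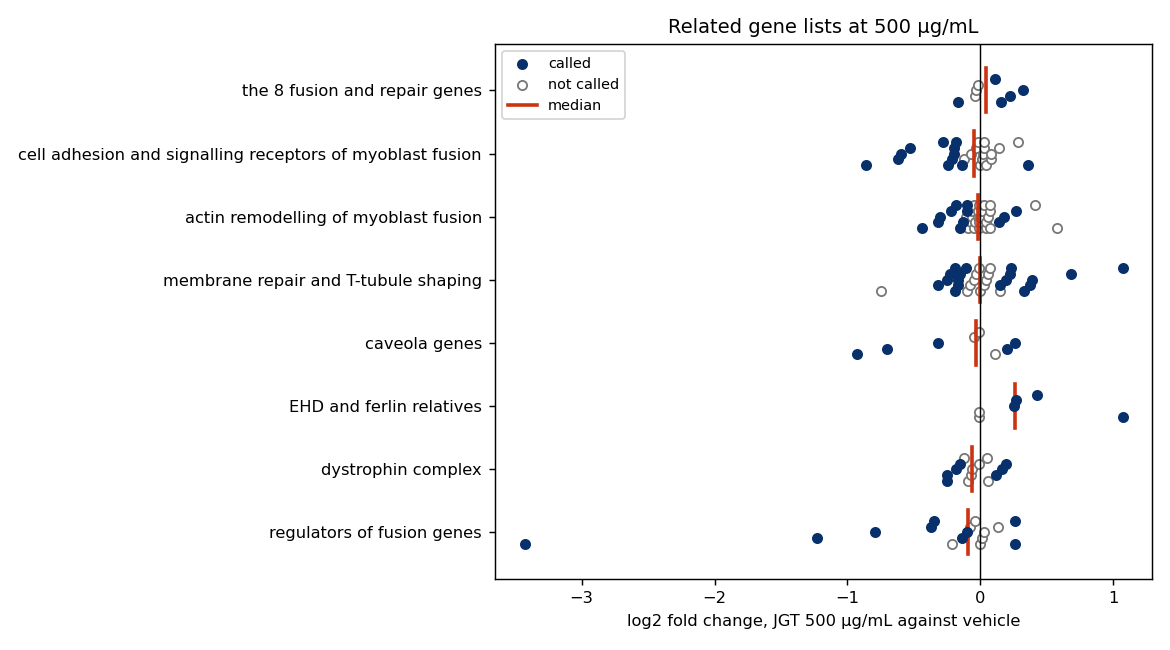
Log2 fold change at 500 µg/mL against vehicle for each tested gene of the 8 members and the 7 lists; filled points were called, open points were not, and the vertical bar is the median. The lists run both ways, from Nfatc2 at −3.43 to Fer1l5 at 1.07, and the medians lie near 0 except for the EHD and ferlin relatives, at 0.26.

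Of the 26 tested receptors of adhesion and fusion signalling, 1 rose and 11 fell at 500 µg/mL (46.2% called, against 33.3% of all genes). Cd44, the hyaluronan receptor, fell to 264.5 CPM at 500 µg/mL, against 399.6 CPM in vehicle (log2 fold change −0.60, adjusted p = 1.13e-10). Itga4 (−0.86), Vcam1 (−0.53), a ligand of the integrin that Itga4 helps to form and also a reserve cell marker, and Adam12 (−0.62), a fusion-associated metalloprotease, also fell, and Itga3 rose (0.36). Cdon, a co-receptor that promotes differentiation, fell (−0.21). Of 36 actin-remodelling genes, 3 rose and 9 fell, a called share of 33.3%, equal to that of all genes. Sh3pxd2b, a podosome scaffold, fell (−0.44), as did Wasf2 (−0.32) and Rnd3 (−0.30), while Fyn (0.27), Arhgef5 (0.18) and Cyth2 (0.14) rose. The call of Cyth2 was lost without any 1 vehicle library, or without JGT 500 replicate 1 or 3 (adjusted p from 0.0512 to 0.0739).

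Of the 30 membrane repair and T-tubule genes, 9 rose and 9 fell (60% called, against 33.3% of all genes), with a median of −0.00. The 4 with the smallest p were S100a10 (−0.32) and Anxa2 (−0.23), partners in annexin complexes, which fell, and the annexin Anxa7 (0.22) and Bin1 (0.37), which shapes T-tubules, which rose. Also higher was the junctophilin Jph2 (0.39), and Trim72, the muscle repair ligase, was not called (0.15, adjusted p = 0.14), though it was called without JGT 500 replicate 2 (0.23, adjusted p = 0.0207). Among the 6 tested EHD and ferlin relatives 4 rose and none fell (66.7% called), where 16.5% of all genes rose and 16.8% fell. Ehbp1, an EHD-binding protein, rose by 0.43, Ehd3 by 0.27 and Ehbp1l1 by 0.25, while Ehd2 and Ehd4 were not called. Fer1l5 was called higher at 1.22 CPM, against 0.569 CPM in vehicle (1.07, adjusted p = 0.035), and without replicate 3 at 500 µg/mL the value was 0.50 (adjusted p = 0.288). Its call was also lost without any 1 vehicle library (adjusted p from 0.0513 to 0.111) and with non-treated cells as the control (0.71, adjusted p = 0.146).

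The caveola genes did not move together. Cav1, the caveolin of non-muscle caveolae, fell to 56, 61 and 51.3 CPM at 500 µg/mL, against 102.2, 110.0 and 108.0 CPM in vehicle (log2 fold change −0.93, adjusted p = 8.54e-11). Cav2 fell as well (4.76 against 7.77 CPM, −0.70, adjusted p = 0.000162), as did Prkcdbp (cavin 3; −0.32, adjusted p = 6.12e-05), while the muscle cavin Murc (cavin 4; 0.20, adjusted p = 0.000405) and Pacsin2 (0.26, adjusted p = 0.000235) rose. Ptrf (cavin 1; −0.05), Sdpr (cavin 2; 0.11) and Ehd2 (−0.01) were not called. Cav1 was also called lower at 100 µg/mL (−0.25, adjusted p = 0.00876), a call lost without JGT 100 replicate 2 or vehicle replicate 2 or 3 (adjusted p from 0.0508 to 0.0578). The proliferating cell sum given above fell at 500 µg/mL as well, and its part in the Cav1 change was not tested.

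**Figure D5:**
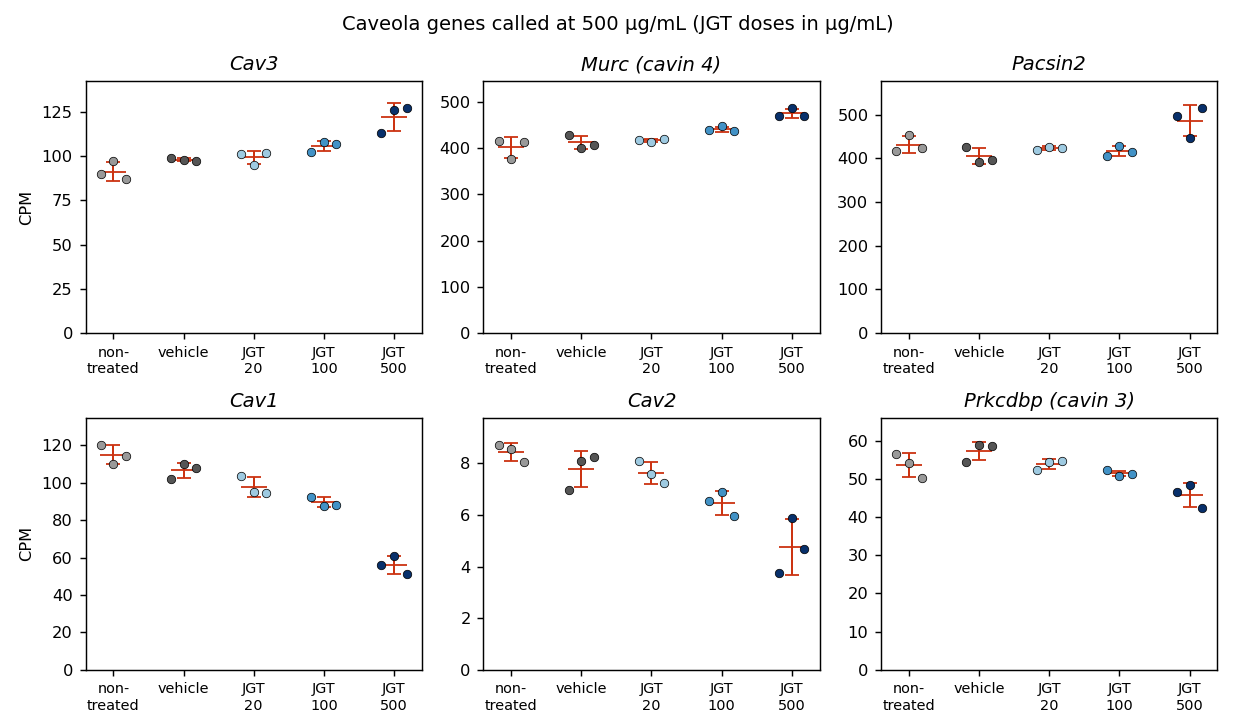
CPM of Cav3 and the 5 other caveola genes called at 500 µg/mL, in each library of the 5 groups, with points for libraries and bars for the mean ± 1 SD (n = 3); axes start at 0. Cav3, Murc and Pacsin2 are higher at 500 µg/mL, and Cav1, Cav2 and Prkcdbp are lower, with Cav1 at 56.1 ± 4.89 CPM, against 106.7 ± 4.02 CPM in vehicle.

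Of the 14 dystrophin complex genes, 3 rose and 4 fell (50% called, against 33.3% of all genes). Those that fell included the laminin chain Lama2 (−0.25) and the dystroglycan gene Dag1 (−0.25). Nos1 (0.19), the neuronal nitric oxide synthase, and Sspn (0.12), sarcospan, rose. The call of Nos1 was lost without vehicle replicate 1 or 3 or JGT 500 replicate 2 (adjusted p from 0.0512 to 0.0993), and that of Sspn without any 1 vehicle library, or without JGT 500 replicate 1 or 3 (adjusted p from 0.0671 to 0.207). Of the 16 regulators of fusion genes, 2 rose and 7 fell (56.2% called, against 33.3% of all genes). Nfatc2, a calcium-dependent factor of myotube growth, had 0.3, 0.293 and 0.459 CPM at 500 µg/mL, against 4.09, 3.24 and 3.98 CPM in vehicle (log2 fold change −3.43, adjusted p = 4.36e-10), at a low level throughout. Fst (−0.79), which antagonises myostatin, Tead1 (−0.37) and Srf (−0.35) fell. Myog (0.26), the myogenic factor of differentiation, and Il4ra (0.26) rose, while Myod1 (0.01) and Mef2c (−0.00) were not called.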

How the data were processed

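RNA sequencing of C2C12 cells was measured in 15 libraries, 3 in each of 5 groups taken from the labels. Per the submitters' processing notes, the tools were RSEM 1.3.3, STAR 2.7.3a, FastQC 0.11.9 and Trim Galore 0.6.5, and the genome GRCm38 (mm10); no source used here gives the role of each, the annotation or the strand option. The deposited table gives, for each gene symbol, the expected counts of the authors, without normalization. Of the values 9.34% were not whole (tolerance 0.005), and all were rounded.

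The counts were filtered with filterByExpr (14461 of 42807 symbols kept, 14397 for the trend), scaled by TMM (factors 0.988 to 1.02) and fitted over all 15 libraries with the quasi-likelihood test of edgeR 4.0.16 (R 4.3.3; common dispersion 0.00282, 10 residual degrees of freedom). The trend over dose ranks used the 9 JGT libraries. Adjusted p-values are Benjamini-Hochberg over all genes tested, with calls below 0.05. Intervals are 95% intervals of the fit and take in the spread between libraries. Gene coordinates are from GENCODE M21 and promoters from RefSeq. The members and lists were chosen with earlier results of these data known. The text names, beside the members, the 4 list genes with the smallest p, any that went against the rest of a list when 5 or fewer, and for likeness the 3 genes with the highest r; 2 genes of the dystrophin complex that the rule names are not reported here. Further list genes (Cdon, Jph2, Trim72, Gm7325, Ptrf, Sdpr, Ehd2, Ehd4, Myod1 and Mef2c) were chosen after their values were seen. Alternatives were other scalings, no filter, DESeq2 1.42.0, a replicate block, a 2-group fit, the non-treated control and each library left out.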

Additional observations from a re-analysis of the deposited data

How the results depend on the processing

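At 500 µg/mL against vehicle, the members called were 5, with 3 in a fit of those 2 groups alone and 3 to 5 when 1 library was left out. The number of all genes called moved too: 4815 in the main fit, 3346 in the 2-group fit and 3704 to 6323 on leaving out a library. Cav3, Ehd1 and Ncam1 kept their calls in all 13 alternatives (adjusted p at most 0.00153, 0.00324 and 0.0382), while Dysf and Myof each lost theirs in 4. At 100 µg/mL, the 1 called member became 0 with library totals only, 0 with no filter, 0 with the replicate block, 2 in the 2-group fit, 3 with non-treated cells as the control, and 0 on leaving out any library. Of all genes 623 were called in the main fit, 652 with library totals only, 636 with no filter and 582 with the replicate block. The 2-group fit called 1369, the non-treated control 1320, and the fits without a library 315 to 409. At 500 against 100 µg/mL the 4 called became 2 without the filter, 1 in the 2-group fit and 2 to 4 on leaving out a library. Of all genes 2853 were called in the main fit, 2571 without the filter, 1313 in the 2-group fit and 1880 to 4989 without a library. The trend count of 2 became 4 with 12 libraries and vehicle at rank 0, and stayed 2 on leaving out any library. Of all genes 2287 were called for the trend, 3892 with the 12 libraries and 1374 to 2765 on leaving out a library. For 20 µg/mL and for vehicle against non-treated cells, the count stayed 0 in the alternatives run. Those alternatives called 18 to 450 of all genes at 20 µg/mL and 36 to 1031 between the controls. With non-treated cells as the control, the log2 difference of Cdh2 over Cdh15 was −0.13 at 20 µg/mL and −0.13 at 100, against −0.06 and −0.07 with vehicle, and that of Myof over Dysf was −0.09 and −0.10, against −0.04 and −0.05. On leaving out a library the cadherin difference ranged from −0.08 to −0.05 at 20, −0.10 to −0.04 at 100 and −0.04 to 0.06 at 500 µg/mL, and the ferlin difference from −0.06 to −0.01, −0.06 to −0.03 and −0.07 to 0.00. The cause of these changes was not tested. Deviations from the group means correlated at −0.31 to 0.12 between same-numbered libraries of different groups (30 pairs). Between differently numbered libraries of different groups the range was −0.16 to 0.25 (60 pairs). For 5 of 15 libraries the mean correlation was higher with the same number than with the other numbers. With 3 libraries a group, such deviations cannot decide whether the numbers were paired. The block on replicate number left 5 members called at 500 µg/mL. Of 720 member values under alternatives, 156 were of called results, of which 124 kept the call and 32 lost it, and 564 of results not called, of which 7 gained a call; none reversed, while 39 changed sign with neither value called. Gm7325 at 500 µg/mL was called with the replicate block (adjusted p = 0.0434). Among the list genes 1 value reversed, Nos1 at 100 µg/mL, which was −0.12 with vehicle (not called) and 0.23 with non-treated cells as the control. Fer1l5 and Nfatc2 rest on few counts.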
